A study of Homo sapiens with 16 samples.

Results

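The genes described here are 42 enzymes, transporters and regulators of central carbon metabolism, that is, of glycolysis, the pentose phosphate pathway, the entry of pyruvate into mitochondria and the citrate cycle, out of 60642 genes in the deposited expression table. They were taken by name from a list of pathway genes, and all 42 were found in the table. The list was drawn up with earlier results of these data known. Shares of members beside shares of all genes therefore describe this set and do not test the pathways. The cells were LNCaP, an androgen-responsive line derived from a lymph node metastasis of human prostate cancer, profiled by poly(A) RNA sequencing in 16 libraries. The 8 treatment groups held 2 libraries each, which the labels call biological replicates. The study asked how the androgen receptor agonist dihydrotestosterone (DHT) and clinically used receptor antagonists change the state of these cells.

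Every culture grew for 72 h with 5% serum, and a further 48 h with 5% serum stripped of its androgens by charcoal preceded the 48 h of treatment. The VEH group received both solvents (ethanol and DMSO) and the DHT group 10 nM DHT. Of the antagonists, BIC stands for bicalutamide, ENZ for enzalutamide and APA for apalutamide, and each was given at 10 uM, without DHT in the groups BIC.VEH, ENZ.VEH and APA.VEH and with 10 nM DHT in the groups BIC.DHT, ENZ.DHT and APA.DHT. All libraries thus came from 1 cell line in stripped serum, at 1 dose and 1 time for each drug. Because RNA was taken from whole cultures, fewer cells of a kind and less RNA per cell cannot be told apart.

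Glycolysis converts glucose to pyruvate in the cytosol, and lactate dehydrogenase can turn that pyruvate into lactate. Pyruvate that enters mitochondria through the mitochondrial pyruvate carrier is made into acetyl-CoA by the pyruvate dehydrogenase complex and feeds the citrate cycle, while the pentose phosphate pathway branches off early in glycolysis to supply NADPH and ribose. Prostate luminal cells are known for unusual citrate handling, and androgen signaling through the androgen receptor is known to act on their lipid and glucose metabolism.

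Values are levels in TPM, the transcript abundance unit that is scaled for transcript length and library total. Differences were tested with limma on log2(TPM + 1) over the 16636 genes that reached 1 TPM in at least 2 libraries, and a gene was called where its Benjamini-Hochberg adjusted p within a comparison was below 0.05. Of the 42 members 41 passed that filter. The glucose transporter gene SLC2A3 did not: it stood at 0.45 and 0.50 TPM in the DHT libraries and at 0.10 TPM or less in the other 14. A second fit added the replicate number as a block, because libraries with the same number deviated together in every pair of groups, and its counts are given beside those without the block.

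Table totals ran from 976190 to 983114 TPM, and the correlation of replicates over all tested genes ran from 0.964 to 0.982. The lowest value was that of both ENZ.DHT and APA.DHT, where replicate 1 stood apart: 31 and 33 of the 41 members were lower in replicate 1 than in replicate 2, with a median difference of -0.25 and -0.22 on the log2 scale against -0.10 and -0.14 over all genes. Mitochondrial transcripts took 22.3% and 14.7% of all TPM in DHT, the extremes of the 16 libraries, and 19.4% and 19.2% in the libraries that stood apart against 16.9% and 16.2% in their partners, and their part in the results was not tested. Luminal markers were present in every library, with KRT8 at 546 TPM or more. Of 8 markers of basal, stromal, endothelial, immune and neuroendocrine cells, 5 stayed below 0.2 TPM everywhere, KRT14 reached 1.68, SYP 2.3 and COL1A1 32.5 TPM, and the sum of the list ran from 15.4 to 18.8 TPM in DHT and from 18.6 to 34.6 TPM in the other groups. Their part in the results below was not tested.

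The androgen check genes separated the DHT libraries from the others. KLK3, the prostate-specific antigen gene, measured 53.0 and 24.0 TPM in VEH and 4102 and 2422 TPM in DHT. The log2 fold changes of KLK3, KLK2, TMPRSS2 and FKBP5 in DHT against VEH were 6.42, 6.57, 3.15 and 2.68, and all 4 were called. With bicalutamide KLK3 measured 358 and 206 TPM in BIC.VEH and 845 and 445 TPM in BIC.DHT. In BIC.VEH against VEH all 4 were positive, from 0.25 to 2.89, with 0 called without and 1 with the block. In ENZ.VEH 3 were positive and 1 negative, and in APA.VEH all 4 were negative, none called by either fit. KLK3 was higher in replicate 1 than in replicate 2 in every group. In the groups with libraries that stood apart it measured 296 against 115 TPM in ENZ.DHT and 340 against 90.4 TPM in APA.DHT.

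Promoters of the members called in DHT against VEH are shown first, since these are the genes on which the results turn. RefSeq on GRCh38.p14 held a promoter for 39 of the 42 members, and SLC2A3, PFKFB2 and OGDH had none. Each line gives the 250 bases before the start site on the gene's own strand, of the outermost start where several are listed. The windows are MPC2 at chr1:167937073-167937322 on the minus strand, ENO1 at chr1:8878687-8878936 on the minus strand, PGD at chr1:10398814-10399063 on the plus strand, and ENO2 at chr12:6914330-6914579 on the plus strand. ENO2, the enolase isozyme that moved against ENO1, is no member and was added after its values were seen. Capitals mark matches to the motifs described below.
MPC2: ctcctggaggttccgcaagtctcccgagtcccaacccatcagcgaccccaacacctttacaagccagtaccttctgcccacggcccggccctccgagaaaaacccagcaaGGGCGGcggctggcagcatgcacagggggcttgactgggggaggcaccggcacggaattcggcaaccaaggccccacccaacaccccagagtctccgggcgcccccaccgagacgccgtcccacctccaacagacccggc
ENO1: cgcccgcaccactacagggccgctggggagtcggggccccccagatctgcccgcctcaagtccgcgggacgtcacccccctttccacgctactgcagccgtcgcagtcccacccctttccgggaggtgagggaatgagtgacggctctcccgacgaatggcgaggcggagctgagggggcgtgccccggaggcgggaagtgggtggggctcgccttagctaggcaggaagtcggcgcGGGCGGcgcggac
PGD: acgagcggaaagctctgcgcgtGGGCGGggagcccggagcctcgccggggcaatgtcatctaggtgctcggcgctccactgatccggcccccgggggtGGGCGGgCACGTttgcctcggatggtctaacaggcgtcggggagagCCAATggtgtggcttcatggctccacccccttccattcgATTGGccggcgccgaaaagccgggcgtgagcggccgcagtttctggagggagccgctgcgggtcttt
ENO2: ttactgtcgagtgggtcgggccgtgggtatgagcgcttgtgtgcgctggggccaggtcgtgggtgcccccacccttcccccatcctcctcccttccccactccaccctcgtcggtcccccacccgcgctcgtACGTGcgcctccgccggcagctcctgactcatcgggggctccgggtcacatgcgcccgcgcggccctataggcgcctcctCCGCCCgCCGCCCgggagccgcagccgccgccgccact

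A set of 6 motifs were searched on both strands of these windows. Each member counts with 1 window, that of its outermost start, while the share of all windows includes every start listed for any gene. These shares are thus not like for like and do not test enrichment. The androgen receptor hexamer AGAACA was found in 1 of the 39 member promoters (2.56%), that of GPI, and in 12.4% of all 35116 promoter windows. The core ACGTG of the hypoxia response element was found in 11 of 39 (28.2%) against 18.5% of all windows, among them those of HK2, LDHA, ALDOA, PGK1, GAPDH and PGD. The E-box CACGTG, which contains that core, was found in 4 of 39 (10.3%) against 6.34%, in ALDOC, GAPDH, LDHA and PDHB. The sterol response element TCACNCCAC occurred in ALDOC alone (2.56% against 0.883%). The GC box GGGCGG was found in 28 of 39 (71.8%) against 42.6%, and the CCAAT box in 19 of 39 (48.7%) against 32% of all windows. Within the printed windows, PGD and ENO2 each held 1 hypoxia core, PGD 2 GC boxes and 2 CCAAT boxes, ENO2 2 GC boxes, and MPC2 and ENO1 1 GC box each. A match is a string of letters in this window only, and neither occupancy nor distal elements were measured here.

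In androgen-depleted LNCaP cells 48 h of DHT raised 4 of the 41 members and lowered none: MPC2, PFKFB2, ENO1 and PGD. These sit at pyruvate entry, at the control point of phosphofructokinase, in lower glycolysis and in the pentose phosphate pathway. The 4 members are 9.76% of those tested, against 3.63% of all genes called higher and 6.64% called lower. Because the members were chosen with earlier results of these data known, such shares are given side by side only. With the replicate block 17 members (41.5%) were called higher, against 10.6% of all genes, and 3 lower, against 16.8%. The direction was shared more widely than the calls: 33 members had a positive and 8 a negative log2 fold change, and the median was 0.25 over members and -0.10 over all genes. Scaling libraries by the median ratio moved the median over all genes to 0.00 and that of the members to 0.37, and then 12 members were called higher and none lower, while the calls over all genes went from 604 higher and 1105 lower to 996 and 892. The uncalled values of PKM, MPC1 and MDH2 (-0.03, -0.02 and -0.07) turned positive under that scaling.

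The members held 1.40% and 1.49% of all TPM in the DHT libraries, above the range of 0.978% to 1.25% in the other 14. In 20 of the 41 members (48.8%) both DHT libraries were the highest of the 16, which was the case for 10.6% of all genes. In 1 member, SUCLA2, both were the lowest, against 14.3% of all genes. DHT and VEH did not overlap, with DHT higher, in 23 members, against 20% of all genes, and with DHT lower in 4, against 36.4% of all genes.

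**Figure D1:**
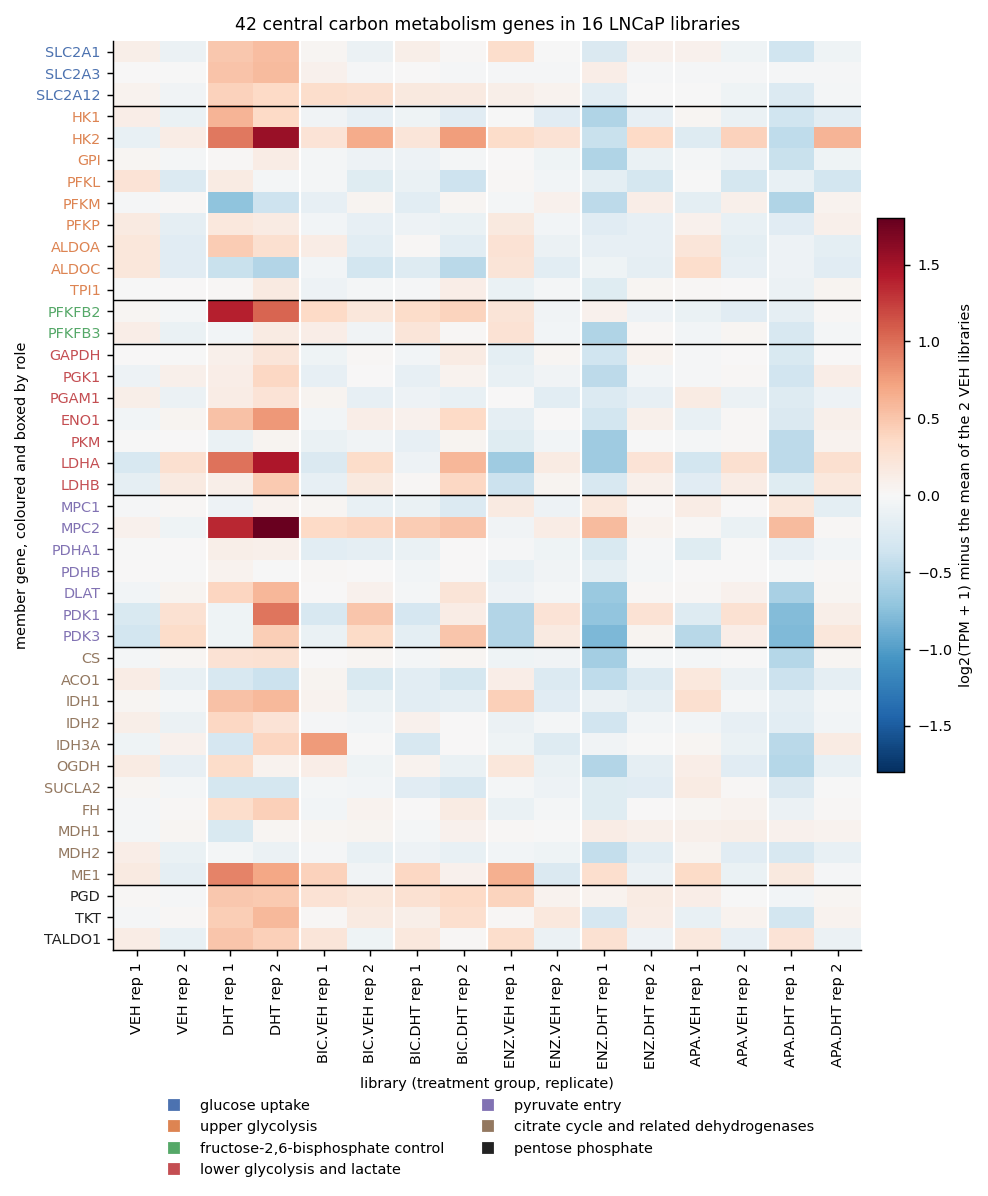
Heatmap of the 42 members (vertical, by role) in the 16 libraries (horizontal, by group and replicate), coloured by log2(TPM + 1) minus the mean of the 2 VEH libraries. The DHT columns hold the strongest positive values, led by MPC2, PFKFB2, HK2 and LDHA, and the columns of ENZ.DHT replicate 1 and APA.DHT replicate 1 are low for many members.

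Glucose uptake itself was not measured, and is represented here by the transcripts of plasma membrane glucose transporters. SLC2A1 (GLUT1), the main basal glucose transporter of many cancer cells, measured 22.6 and 19.4 TPM in VEH and 29.7 and 31.1 TPM in DHT. The groups did not overlap, yet the log2 fold change of 0.52 (SE 0.17) had an adjusted p of 0.073 by limma with Benjamini-Hochberg adjustment and was called only with the block (adjusted p = 0.031). SLC2A12 (GLUT12) went from 14.01 and 12.7 TPM to 18.0 and 17.4 TPM, 0.38 higher on the log2 scale (SE 0.12, limma adjusted p = 0.079, with the block 0.024).

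In upper glycolysis the hexokinases, which trap glucose as glucose-6-phosphate, were both higher in the DHT libraries. HK1, the constitutive isozyme, measured 91.9 and 77.9 TPM in VEH and 130 and 109 TPM in DHT (log2 fold change 0.49, SE 0.16, limma adjusted p = 0.075, with the block 0.029). HK2, the inducible isozyme often raised in tumours, was far less abundant, with 3.19 and 4.02 TPM in VEH but 7.87 and 12.5 TPM in DHT. Its log2 fold change of 1.25 was among the largest of the members, but replicates differed enough (SE 0.39) that the limma adjusted p was 0.067, falling to 0.0018 with the block. Phosphofructokinase, the committed step, showed an isozyme split. PFKM, the muscle-type subunit, was lower in DHT, at 88.6 and 114 TPM against 145 and 150 TPM in VEH (log2 fold change -0.55, SE 0.23), and this was called only with the block (limma adjusted p = 0.16 without and 0.012 with it). PFKL and PFKP, the liver-type and platelet-type subunits, gave log2 fold changes of 0.05 and 0.17 and overlapped between groups. Aldolase behaved alike: ALDOA gave 0.37 (SE 0.20) and ALDOC -0.46 (SE 0.20), each called only with the block. GPI and TPI1, which interconvert sugar phosphates, gave 0.08 and 0.09 and were called by neither fit.

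PFKFB2 encodes a bifunctional enzyme that makes and degrades fructose-2,6-bisphosphate, the allosteric activator of phosphofructokinase. It measured 15.3 and 14.4 TPM in VEH and then 40.99 and 31.9 TPM in DHT. The DHT libraries were the highest of all 16, and the log2 fold change was 1.23 (SE 0.15, a 2.34-fold difference on the TPM + 1 scale, limma adjusted p = 0.00075). The call held without any 1 of the 4 libraries compared (limma adjusted p from 0.0023 to 0.01). Its paralog PFKFB3 stayed between 5.86 and 11.0 TPM in all libraries, with a log2 fold change of 0.05 (SE 0.20). PFKFB2 made up 82.5% and 75.9% of the summed TPM of both genes in DHT and 58% to 73% in the other 14 libraries. At chr1:207034416-207081027 its annotated span overlaps YOD1, which measured 4.96 and 6.58 TPM in VEH and 6.91 and 9.73 TPM in DHT.

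Lower glycolysis holds the most abundant members, with GAPDH at 2091 to 3117 TPM. ENO1, the ubiquitous enolase, which makes phosphoenolpyruvate, measured 604 and 642 TPM in VEH and 896 and 1075 TPM in DHT (log2 fold change 0.66, SE 0.18, limma adjusted p = 0.041). That call was lost without any of the 4 libraries compared (limma adjusted p from 0.071 to 0.23). LDHA, the lactate dehydrogenase subunit that favours lactate formation, measured 200 and 299 TPM in VEH and 480 and 672 TPM in DHT. Its log2 fold change of 1.21 was called only with the block (SE 0.42, limma adjusted p = 0.095 without it, and SE 0.10, adjusted p = 1.6e-05 with it). Replicate 1 was lower than replicate 2 in 8 of 8 groups. LDHB, the other subunit, gave 0.29 (SE 0.24) and was also called with the block alone. PGK1 and PGAM1 were apart between the groups, with log2 fold changes of 0.25 and 0.19, and PKM, the pyruvate kinase gene, gave -0.03, and none of these was called by either fit. GAPDH gave 0.16 and was not called either. Pseudogene copies listed under these genes' names held at most 2.62% of the sum of LDHA and its copies and at most 0.183% for ENO1.

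Pyruvate entry held the largest change among the members. MPC2, a subunit of the mitochondrial pyruvate carrier, measured 109 and 98.2 TPM in VEH and 266 and 358 TPM in DHT, which is 1.57 higher on the log2 scale (SE 0.21, a 2.97-fold difference, limma adjusted p = 0.001). This call also held without any 1 of the 4 libraries compared (0.0036 to 0.015). Its partner subunit MPC1 measured 33.2 and 34.4 TPM in VEH and 31.6 and 35.4 TPM in DHT (log2 fold change -0.02, SE 0.15). The MPC2 locus at chr1:167916675-167937072 overlaps DCAF6, a substrate adaptor of ubiquitin ligases, which measured 80.1 and 77.2 TPM in VEH and 140 and 149 TPM in DHT, a difference of 0.87 on the log2 scale. How reads were divided between overlapping genes is not known from the table, so the share of the MPC2 difference that belongs to this neighbour was not tested. Of the pyruvate dehydrogenase complex, DLAT, its acetyltransferase subunit, gave 0.49 (SE 0.23) and was called only with the block, while PDHA1 and PDHB gave 0.10 and 0.03 and were not called. The kinases that switch the complex off, PDK1 and PDK3, gave 0.44 (SE 0.48) and 0.19 (SE 0.44) and were not called by either fit, with replicate 1 lower in 8 of 8 groups.

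**Figure D2:**
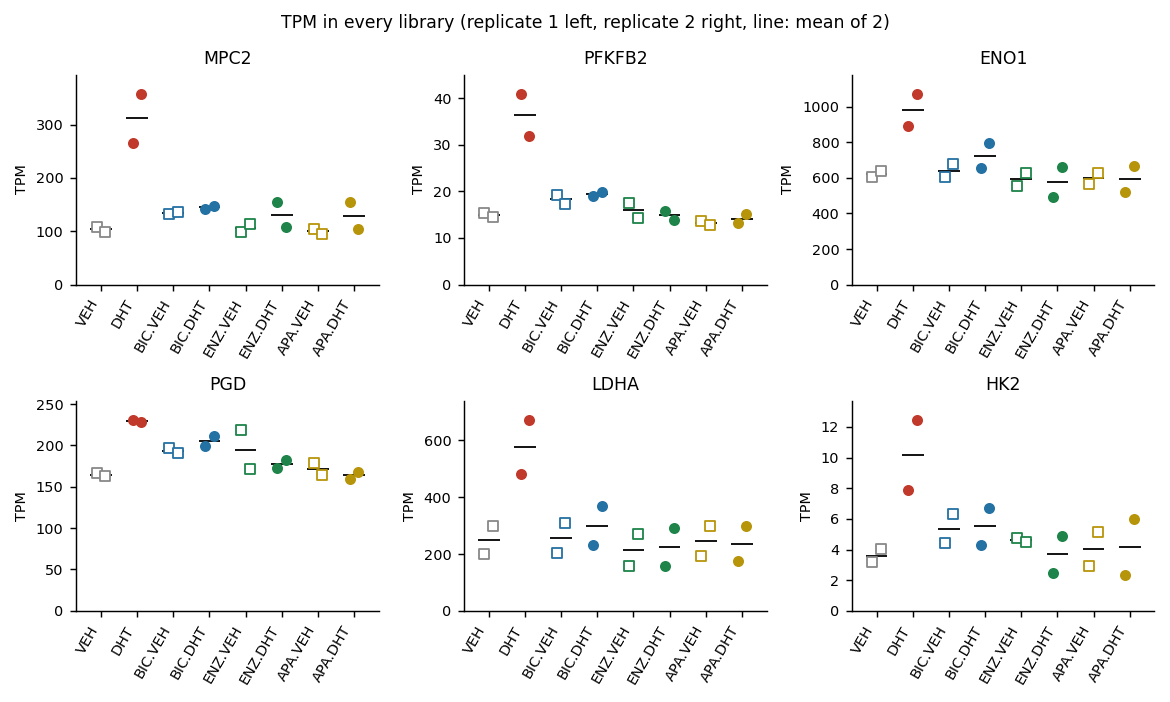
TPM (vertical axis from 0) of MPC2, PFKFB2, ENO1, PGD, LDHA and HK2 in the 8 groups (horizontal axis), with 1 point a library, replicate 1 left of replicate 2, filled circles with DHT, open squares without, and a line at the mean of 2. In all 6 genes both DHT libraries lie above the other 14.

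No citrate cycle gene was called in DHT against VEH without the block. IDH1, the cytosolic NADP-dependent isocitrate dehydrogenase, measured 313 and 299 TPM in VEH and 442 and 461 TPM in DHT (log2 fold change 0.56, SE 0.18, limma adjusted p = 0.078, with the block 0.022). FH, which hydrates fumarate to malate, went from 89.8 and 92.5 TPM to 113 and 123 TPM (log2 fold change 0.37, SE 0.11, adjusted p = 0.066, with the block 0.0045 by limma). ME1, the cytosolic malic enzyme and an NADPH source, gave 0.80 (SE 0.29) and was called with the block alone. The mitochondrial isozyme IDH2 measured 154 and 133 TPM in VEH and 185 and 169 TPM in DHT, 0.31 higher on the log2 scale (SE 0.13), and was called by neither fit. SUCLA2, the ATP-forming succinyl-CoA synthetase subunit, was lower at 44.8 and 44.96 TPM against 57.5 and 54.9 TPM (log2 fold change -0.32, SE 0.11), called only with the block. The remaining genes of the cycle, CS, ACO1, IDH3A, OGDH, MDH1 and MDH2, had log2 fold changes from -0.34 to 0.27 and were called by neither fit.

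All 3 pentose phosphate members were higher in DHT, by similar amounts. PGD, which makes NADPH in the oxidative branch, measured 167 and 162 TPM in VEH and 231 and 229 TPM in DHT (log2 fold change 0.48, SE 0.12, limma adjusted p = 0.028). Without any of the 4 libraries compared the PGD call was lost (limma adjusted p from 0.11 to 0.13). TKT and TALDO1, the transferases of the non-oxidative branch, gave 0.51 (SE 0.17) and 0.46 (SE 0.20) and were called with the block. TKT measured 254 and 263 TPM in VEH and 350 and 390 TPM in DHT, with no overlap. By limma its adjusted p was 0.086 without and 0.0027 with the block.

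Isozyme composition of the DHT libraries lay outside that of the others in several families, which is a comparison within each library and so does not depend on its scaling. LDHA made up 63% and 64.8% of the summed LDHA and LDHB level in DHT and 42.2% to 52% in the other 14 libraries. MPC2 made up 89.4% and 91% of the summed level of the partner subunits MPC1 and MPC2 against 72.4% to 84%. The part of the overlapping gene DCAF6 in this share was not tested. ALDOC lay below the other libraries, with 4.37% and 4.48% of the aldolase sum against 6.29% to 8.23%. The share of PFKM in the phosphofructokinase sum, 34% and 42.4% in DHT against 41.8% to 55.8%, overlapped with other groups. HK2 held 5.71% and 10.2% of the hexokinase sum in DHT and 3.25% to 8.39% elsewhere, which also overlapped.

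**Figure D3:**
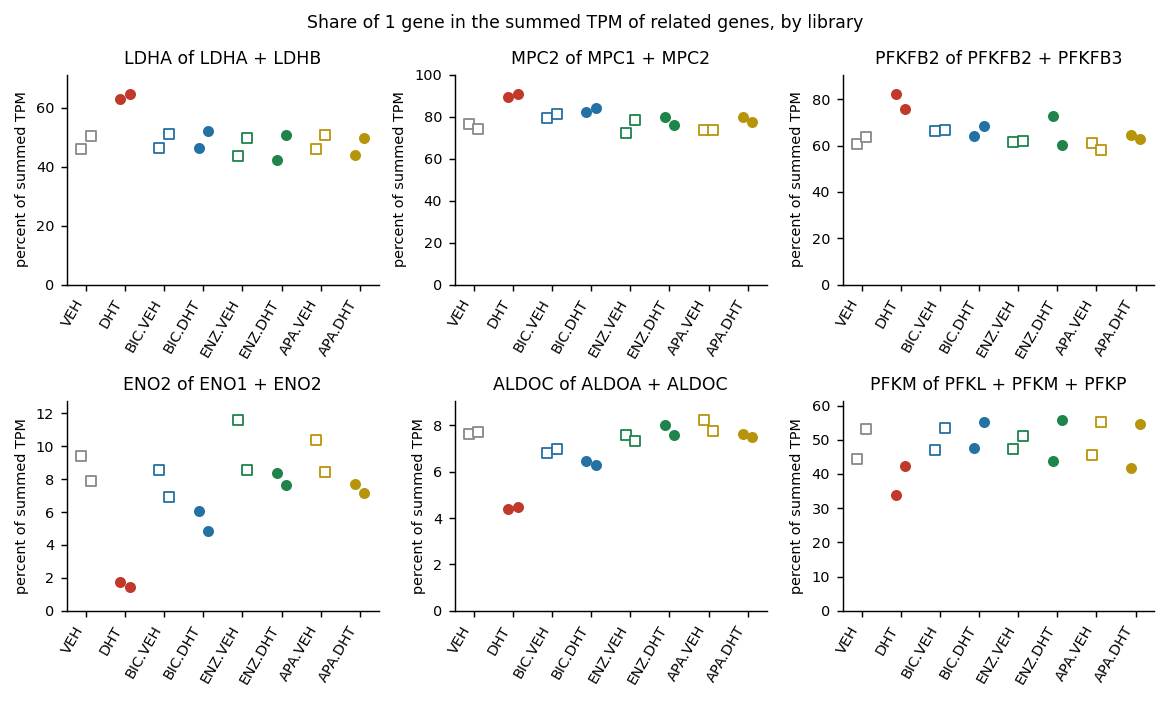
Share of LDHA, MPC2, PFKFB2, ENO2, ALDOC and PFKM in the summed TPM of the related genes named above each panel (vertical axis, percent from 0), by group (horizontal axis), with 1 point a library and symbols as in the plot of TPM by library. The DHT libraries lie above the rest for LDHA, MPC2 and PFKFB2, below the rest for ENO2 and ALDOC, and overlap with other groups for PFKM.

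Beside the members, 54 other genes of the same pathways were examined, of which 43 passed the filter. With DHT 1 of them was called higher and 3 lower, their median log2 fold change was -0.06, and 16 were positive and 27 negative. The block fit called 4 of them higher and 5 lower. The largest change was a fall of ENO2, the neuronal enolase, from 62.9 and 55.1 TPM in VEH to 16.1 and 15.6 TPM in DHT (log2 fold change -1.83, SE 0.15, limma adjusted p = 4.0e-05). ENO2 was 9.42% and 7.9% of the summed ENO1 and ENO2 level in VEH and 1.76% and 1.43% in DHT. Over the 14 libraries other than DHT it was 4.83% to 11.6%. ENO3, a further enolase gene, was left out of that sum and measured 19.91 and 22.94 TPM in VEH and 16.55 and 21.97 TPM in DHT. PDK2, another pyruvate dehydrogenase kinase (-0.68), and the transporter SLC2A11 (-0.57) also fell, and ADPGK, an ADP-dependent glucokinase, rose (0.45).

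Markers of dividing cells moved with the same comparison. All 8 (MKI67, TOP2A, CCNB1, CDK1, MCM2, PCNA, RRM2 and TYMS) had positive log2 fold changes in DHT against VEH, from 1.01 to 2.09, of which none was called without and 7 with the block. Their summed level was 157 and 393 TPM in VEH, 426 and 860 TPM in DHT, and 111 to 567 TPM in the other groups, and it was lower in replicate 1 than in replicate 2 in every group. Of the 6 tested hypoxia targets outside the pathway 3 had positive and 3 negative log2 fold changes, from -1.91 to 0.72, and 1 was called, as lower. The block fit called 3 of them, 2 higher and 1 lower. The part of cell division or of hypoxia in the members' changes was not tested.

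Without the block, adding an antagonist to DHT lowered members and raised none. All these comparisons use the same 2 DHT libraries, which also stand in DHT against VEH, so their values are given side by side only. Bicalutamide lowered 2 of the 41 members (4.88%), PFKFB2 and MPC2, against 1.68% of all genes called lower and 1.45% called higher. With the block 11 members (26.8%) were lower, against 6.82% of all genes, and 1, PFKM, was higher, against 6.50%. Enzalutamide lowered 9 members (22.0%), against 4.91% of all genes called lower and 4.74% called higher. With the block 27 (65.9%) were lower, against 15.9%, and 1, ALDOC, higher, against 13.3%. Apalutamide likewise lowered 9 members (22.0%), against 4.11% of all genes called lower and 4.25% called higher, and with the block 24 (58.5%), against 14.1%, with none higher, against 13.2%. The median over members was -0.26 with bicalutamide, -0.41 with enzalutamide and -0.40 with apalutamide, while the medians over all genes were 0.00, -0.01 and 0.00.

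These counts rest on few libraries. Without ENZ.DHT replicate 1 the 9 members called for enzalutamide became 2, and without ENZ.DHT replicate 2 they became 15. Without APA.DHT replicate 1 the 9 for apalutamide became 2, without APA.DHT replicate 2 they became 10, and leaving out either DHT library gave 2 or 3 for either drug. With both libraries that stood apart left out together, an alternative chosen after seeing the data, the counts were 14 members for DHT against VEH, 3 for bicalutamide, 2 for enzalutamide and 3 for apalutamide.

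**Figure D4:**
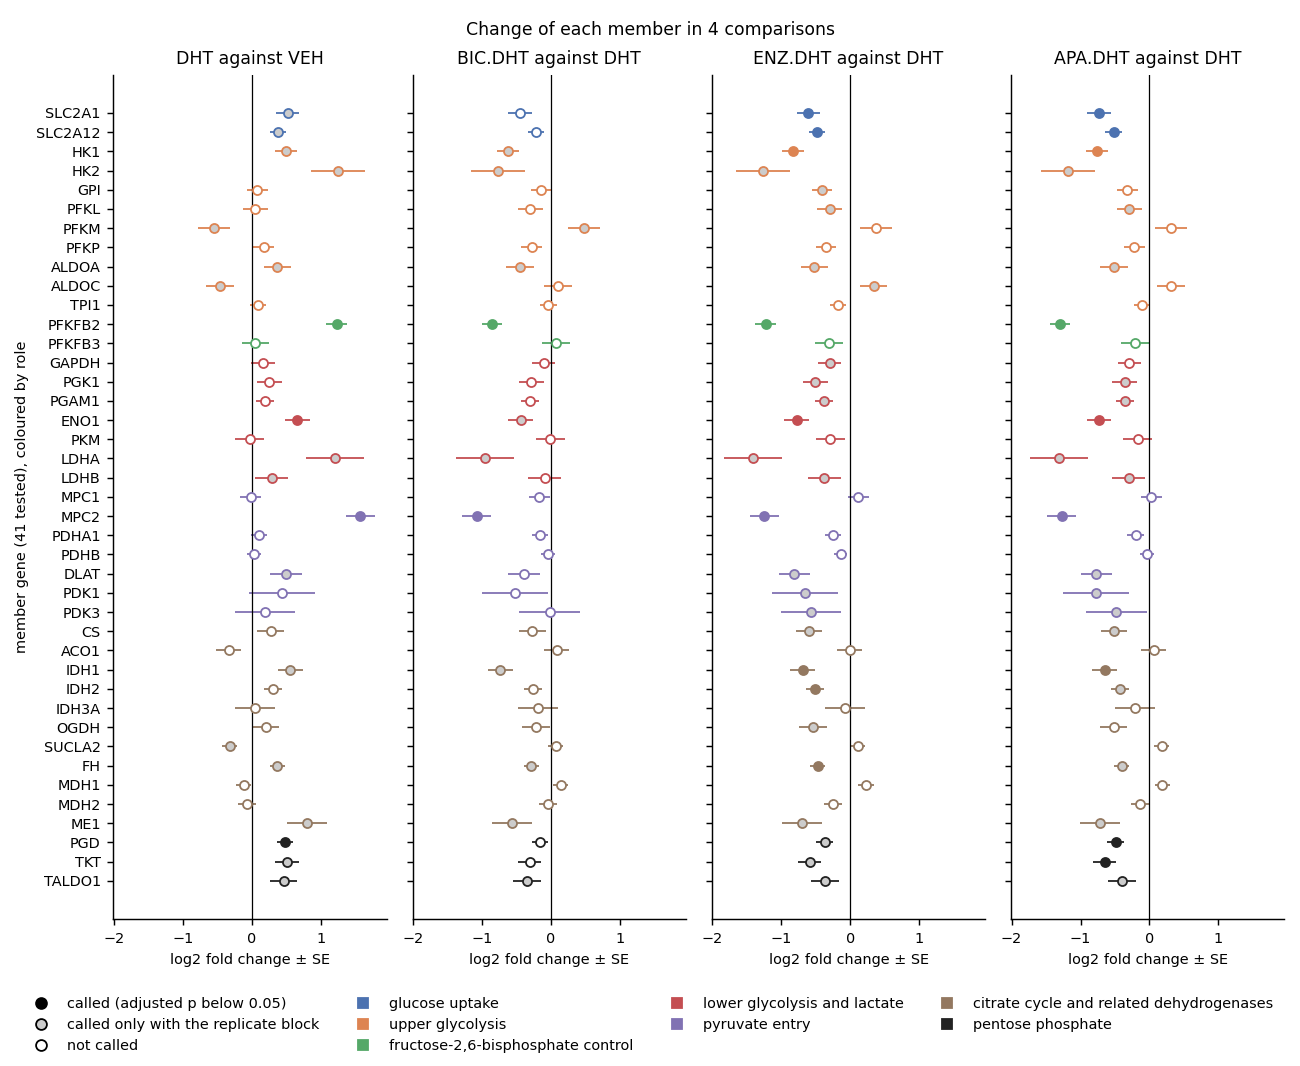
Log2 fold change with its SE (horizontal axis) of the 41 tested members (vertical axis, coloured by role) in DHT against VEH and in each antagonist plus DHT against DHT. Filled points were called, grey points were called only with the replicate block, and the 3 antagonist panels share the DHT libraries with the first.

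PFKFB2 was called with all 3 antagonists. It measured 19.0 and 20.0 TPM in BIC.DHT, 15.8 and 13.9 TPM in ENZ.DHT and 13.2 and 15.04 TPM in APA.DHT, against 40.99 and 31.9 TPM in DHT. Against DHT this was -0.86, -1.23 and -1.30 on the log2 scale (SE 0.15 each), and limma gave adjusted p of 0.014, 0.00083 and 0.00057. For enzalutamide and apalutamide the call held with any 1 library left out, and for bicalutamide it was lost without any of BIC.DHT replicate 1, BIC.DHT replicate 2 and DHT replicate 1 (adjusted p from 0.093 to 0.13 by limma).

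MPC2 was called with all 3 antagonists as well. Its levels were 142 and 148 TPM in BIC.DHT, 154 and 108 TPM in ENZ.DHT and 154 and 105 TPM in APA.DHT. Against DHT this was -1.08, -1.25 and -1.27 on the log2 scale (SE 0.21 each), and limma gave adjusted p of 0.02, 0.0046 and 0.0043. Without DHT replicate 2 these calls were lost (limma adjusted p = 0.18, 0.054 and 0.053), and the bicalutamide call was lost also without either BIC.DHT library (0.15 and 0.11). In both libraries that stood apart MPC2 was above its partner, in contrast to most members. DCAF6, the overlapping gene, measured 88.8 to 91.1 TPM in BIC.DHT and 68.4 to 80 TPM in ENZ.DHT and APA.DHT.

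Enzalutamide and apalutamide both lowered the glucose transporters SLC2A1 and SLC2A12, the hexokinase HK1, ENO1 and IDH1. SLC2A1 measured 17.3 and 22.1 TPM in ENZ.DHT and 16.1 and 19.8 TPM in APA.DHT, with log2 fold changes of -0.61 and -0.73 (SE 0.17 each, limma adjusted p = 0.041 and 0.02). SLC2A12 measured 11.6 and 13.4 TPM and 11.1 and 13.0 TPM (-0.48 and -0.52, SE 0.12 each, limma adjusted p = 0.036 and 0.026). HK1 measured 58.0 and 76.0 TPM and 65.9 and 73.8 TPM (-0.83 and -0.76, SE 0.16 each, limma adjusted p = 0.0082 and 0.013). In all of these the antagonist libraries lay wholly below the DHT libraries. ENO1 measured 493 and 662 TPM and 521 and 666 TPM (-0.78 and -0.73, SE 0.18 each, limma adjusted p = 0.022 and 0.029). IDH1 measured 284 and 275 TPM and 273 and 300.2 TPM (-0.69 and -0.65, SE 0.18 each, limma adjusted p = 0.037 and 0.049). The calls of SLC2A1, SLC2A12, HK1 and ENO1 held without replicate 2 of the antagonist group and were lost without its replicate 1. Those of SLC2A1 and SLC2A12 were lost also without either DHT library, those of HK1 without DHT replicate 1 and those of ENO1 without DHT replicate 2. With apalutamide the ENO1 call was lost without DHT replicate 1 as well. For these 4 genes the log2 fold changes ran from -1.02 to -0.57 without replicate 2 of the antagonist group. They ran from -0.68 to -0.38 without its replicate 1, and from -0.96 to -0.45 without a DHT library. The calls of IDH1 were lost without any of the 4 libraries compared.

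A further 4 calls were made with 1 of these drugs only, and none is shown to differ between them. With enzalutamide IDH2 measured 112 and 137 TPM (log2 fold change -0.51, SE 0.13, limma adjusted p = 0.029) and FH 78.4 and 91.4 TPM (-0.47, SE 0.11, adjusted p = 0.025 by limma). With apalutamide the same genes gave -0.43 and -0.40 and limma adjusted p of 0.061 and 0.051. With apalutamide PGD measured 160 and 168 TPM (-0.49, SE 0.12, limma adjusted p = 0.031) and TKT 206 and 269 TPM (-0.65, SE 0.17, limma adjusted p = 0.042), while with enzalutamide they gave -0.37 and -0.59 with limma adjusted p of 0.079 and 0.053. Without replicate 1 of the antagonist group all 4 calls were lost (limma adjusted p from 0.14 to 0.24).

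HK2 and LDHA, whose replicates differed more, were lower with every antagonist and were called only with the block. LDHA measured 230 and 369 TPM in BIC.DHT, 157 and 290 TPM in ENZ.DHT and 176 and 298 TPM in APA.DHT, all below the 480 and 672 TPM of DHT. Its log2 fold changes were -0.96, -1.41 and -1.31 (SE 0.42 each without and 0.10 with the block), and the limma adjusted p was 0.31, 0.059 and 0.08 without and 0.00018, 7.1e-06 and 1.2e-05 with the block. HK2 measured 4.32 and 6.74 TPM, 2.49 and 4.89 TPM and 2.33 and 6.01 TPM in the same order, against 7.87 and 12.5 TPM in DHT. It stood -0.77, -1.27 and -1.18 from DHT on the log2 scale (SE 0.39 each), and limma gave adjusted p of 0.04, 0.0017 and 0.0028 with the block.

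The 3 members lower with DHT in the block fit, PFKM, ALDOC and SUCLA2, had positive log2 differences from DHT with every antagonist, few of them called. PFKM was 0.48, 0.37 and 0.31 above DHT with bicalutamide, enzalutamide and apalutamide on the log2 scale, and only the first value was called, with the block. ALDOC gave 0.10, 0.34 and 0.31, of which the enzalutamide value was called with the block, and SUCLA2 gave 0.07, 0.11 and 0.18, none called. Of the other 5 members with a negative value in DHT against VEH, PKM and MDH2 were negative with every antagonist as well. Among genes that are no members ENO2 rose with all 3, by 1.33, 1.59 and 1.52 (SE 0.15 each, limma adjusted p = 0.00097, 0.00015 and 2.0e-04), to 42.2 and 40.4 TPM in BIC.DHT, 44.98 and 54.8 TPM in ENZ.DHT and 43.6 and 51.5 TPM in APA.DHT. The 8 markers of dividing cells were lower with every antagonist, with medians of -0.58, -1.43 and -1.26, and none was called without the block, while 2, 8 and 8 were called with it.

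Without DHT no member was called with any antagonist. Against VEH the calls over all genes were 0 with bicalutamide (0%), 0 with enzalutamide (0%) and 1 with apalutamide (0.00601%). At an unadjusted limma p below 0.05 stood 1, 0 and 0 members without the block and 2, 3 and 0 with it, and over all genes 194, 139 and 151 without and 539, 483 and 399 with it. The members' log2 fold changes ran from -0.19 to 0.46 with bicalutamide, from -0.25 to 0.29 with enzalutamide and from -0.20 to 0.12 with apalutamide. In BIC.VEH MPC2 stood at 133 and 135 TPM and PFKFB2 at 19.3 and 17.3 TPM, above both VEH libraries in each case and short of the threshold.

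DHT given on top of an antagonist called no member either. Against the same antagonist without DHT 0 genes were called in all with bicalutamide (0%), 1 with enzalutamide (0.00601%) and 1 with apalutamide (0.00601%). At an unadjusted limma p below 0.05 stood 0 members with each drug, and 1, 2 and 2 with the block, while over all genes it was 234, 541 and 408 without the block and 768, 1588 and 1158 with it. The median over members was 0.03, -0.15 and -0.10, beside -0.06, -0.13 and -0.07 over all genes, and median-ratio scaling moved the members to 0.09, -0.01 and -0.03 and all genes to 0.00. MPC2 had the highest value with enzalutamide and with apalutamide, 0.28 and 0.34, and LDHA with bicalutamide, 0.21.

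The loss of the DHT response was tested itself, as the interaction of antagonist and DHT. With bicalutamide it was called for PFKFB2 (-1.13, SE 0.22, limma adjusted p = 0.038) and MPC2 (-1.45, SE 0.30, limma adjusted p = 0.048), 4.88% of members against 0.667% of all genes lower and 0.319% higher. With enzalutamide PFKFB2 alone was called (-1.31, SE 0.22, limma adjusted p = 0.012), 2.44% of members against 1.05% lower and 0.577% higher. With apalutamide it was again PFKFB2 alone (-1.14, SE 0.22, limma adjusted p = 0.028), 2.44% against 0.805% lower and 0.619% higher. Each of these 4 calls was lost without some of the 8 libraries compared (limma adjusted p up to 0.17, 0.19, 0.066 and 0.13 in the order given). MPC2 gave -1.29 and -1.23 in the latter comparisons, with limma adjusted p of 0.061 and 0.082. With the block 5, 14 and 13 members were lower, against 3.15%, 5.72% and 4.91% of all genes, and none was higher, against 3.24%, 4.18% and 5.22%. PFKFB2, MPC2, ENO1, LDHA and HK2 were among these with all 3 drugs.

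The antagonists were compared with each other at the same dose and time in the presence of DHT, as 3 pairs. Enzalutamide and apalutamide share a thiohydantoin core and differ in that apalutamide carries a pyridine ring and a spiro-cyclobutyl group where enzalutamide has a benzene ring and geminal methyl groups, while bicalutamide is a propanamide without that core. No member was called in any pair. Over all genes the calls were 1 for ENZ.DHT against BIC.DHT (0.00601%), 0 for APA.DHT against BIC.DHT (0%) and 1 for APA.DHT against ENZ.DHT (0.00601%). At an unadjusted limma p below 0.05 stood 1, 3 and 0 members, with the block 12, 9 and 0. Over all genes it was 565, 483 and 102, with the block 2062, 1643 and 232.

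The thiohydantoins gave close values. Between APA.DHT and ENZ.DHT the members' log2 differences ran from -0.13 to 0.14 with a median of 0.04, and the 95% interval was -0.41 to 0.27 for PFKFB2, -0.49 to 0.44 for MPC2 and -0.82 to 1.02 for LDHA. Against bicalutamide most members were lower with the newer drugs, 35 of 41 with enzalutamide and 33 of 41 with apalutamide, with medians of -0.19 and -0.16 beside -0.03 and -0.01 over all genes. For PFKFB2 these differences were -0.37 (95% interval -0.71 to -0.03) and -0.44 (-0.78 to -0.10), with limma adjusted p of 0.93 and 1. ENZ.DHT and APA.DHT hold the libraries that stood apart, in which most members were low. In these groups 31 and 33 of 41 members were lower in replicate 1 than in replicate 2, with median log2 differences of -0.25 and -0.22. In BIC.DHT it was 24 of 41, with a median of -0.07. The part of the libraries that stood apart in the counts and medians against bicalutamide was not tested.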

How the data were processed

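LNCaP RNA was sequenced as 125 bp read pairs, about 40 M pairs a library per the labels, from stranded poly(A) libraries. Per the labels and the study's methods the authors used FastQC 0.11.9, Trim Galore 0.6.5, STAR 2.7.2b and RSEM 1.3.3 on GRCh38, and deposited TPM per gene symbol. TPM keeps no depth, so no counting interval is given.

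Here the 60642 genes were filtered to 16636 (1 TPM or more in 2 or more libraries) and log2(TPM + 1) was fitted with limma 3.58.1 in R 4.3.3: 8 group means over all 16 libraries, a trended prior, and Benjamini-Hochberg adjustment within each of 16 comparisons, threshold 0.05. A fold change on this scale understates that of low genes. The groups come from the treatment labels. The labels number the biological replicates but not what a number marks. The differences between replicates correlated over genes in all 28 pairs of groups (lowest 0.20, median 0.43, highest 0.64), so the numbers were taken to pair libraries and the blocked counts are printed. P-values measure the spread between these duplicates. Alternatives were a pseudocount of 0.1, no filter, median-ratio scaling, the block, only the groups compared, and each library left out. The fit was checked on simulated data with noise drawn independently for each library, so that check does not cover the shared replicate differences seen here. Full values were given to members called in DHT against VEH or in an antagonist plus DHT against DHT, or called with the block at an absolute log2 fold change of at least 1. The members and lists were chosen with earlier results of these data known. Promoters come from RefSeq (GRCh38.p14). Proteins were not analysed here.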

Additional observations from a re-analysis of the deposited data

Results flagged for a closer look

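The interaction tests called differences between the DHT effect with and without an antagonist for PFKFB2 with bicalutamide (-1.13), enzalutamide (-1.31) and apalutamide (-1.14), and for MPC2 with bicalutamide (-1.45), on the log2 scale by limma with Benjamini-Hochberg adjustment. All share the VEH and DHT libraries. The PFKFB2 call was lost without any of 7 of the 8 libraries with bicalutamide (adjusted p from 0.11 to 0.17 by limma), without any of 3 of the 8 with enzalutamide (0.052 to 0.066) and without any of 6 of the 8 with apalutamide (0.086 to 0.13), and that of MPC2 without any of the 8 (0.06 to 0.19). With the replicate block all were called. Groups of 2 libraries are too small to test for a library far from the others.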

How the results depend on the processing

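None of the members given in full reversed its direction in the comparisons in which it was called by either fit. Among uncalled members near 0 the sign did turn under median-ratio scaling, in DHT against VEH for PKM, MPC1 and MDH2 (0.09, 0.10 and 0.05). The number of members called moved by more than 1.5 times as follows. Median-ratio scaling gave 12 in DHT against VEH (4 as reported), 4 with bicalutamide against DHT (2), 15 with enzalutamide (9) and 1 for the bicalutamide interaction (2). The replicate block gave 20, 12, 28 and 24 in DHT against VEH and in bicalutamide, enzalutamide and apalutamide plus DHT against DHT, and 5, 14 and 13 for their interactions, and it called no member in the other comparisons. With only the groups compared, which leaves 2 residual degrees of freedom in a comparison of 2 groups, these comparisons gave 0 members, apart from the bicalutamide interaction with 1. The pseudocount of 0.1 and no filter on low values each gave 1 for the bicalutamide interaction. Leaving out 1 library gave 2 members in each case in DHT against VEH, 0 to 1 with bicalutamide, 2 to 15 with enzalutamide and 2 to 10 with apalutamide, and for the interactions 0 to 1, 0 to 2 and 0 to 1. Leaving out ENZ.DHT replicate 1 and APA.DHT replicate 1 together, chosen after seeing the data, gave 14 in DHT against VEH, 2 with enzalutamide, 3 with apalutamide and 2 for the enzalutamide interaction. ENO1 in DHT against VEH lost its call with no filter (adjusted p = 0.081 by limma). The cause of these shifts was not tested.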
